A study of Caenorhabditis elegans with 15 samples.

Results

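The col genes are the largest group of collagen genes in the nematode Caenorhabditis elegans. They were taken here as all genes of the deposited count table whose WBcel235 symbol is col followed by a number. The rule found 156 genes among 46739, all annotated as protein coding. They lie on all 6 chromosomes, with 21 on I, 24 on II, 12 on III, 41 on IV, 31 on V and 27 on X. A count was seen for 154 of them in at least 1 library, and 106 had enough counts to be tested. The other 50 members did not pass the filter on low counts and are described only by their levels.

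RNA was sequenced from whole adults, picked by hand 24 h after the mid-L4 larval stage, in 15 libraries of 5 genotypes with 3 libraries each. Double knock-outs of gld2 with ccf1 (gld2-ccf1), with ccr4 (gld2-ccr4) and with parn1 (gld2-parn1) were set beside the single mutant gld2 and wild type (wt). The gld-2 gene encodes a cytoplasmic poly(A) polymerase, and ccf-1, ccr-4 and parn-1 encode deadenylases. All 3 double mutants thus share the gld2 lesion with the single mutant, so wt is the only genotype with gld-2 intact. The labels name no allele. They also do not say whether replicates came from separate cultures, so p-values measure the spread between these libraries, which may be technical.

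The cuticle of C. elegans is an extracellular matrix secreted by the epidermis, and it is rebuilt at each moult. Cuticle collagens are small proteins with Gly-X-Y repeats that are hydroxylated, cleaved, trimerised and cross-linked, and most are encoded by short genes of few exons. Many are transcribed in waves during the moulting cycle, and some are used at 1 stage only, such as col-19, a target of the heterochronic factor LIN-29 that marks the adult cuticle. Because the RNA is from whole worms, fewer epidermal cells and less collagen RNA per cell cannot be told apart in these data. Reads shared between close family members may have been split or dropped in the authors' counting, whose handling of such reads is not given in the sources used here, so values of single members are uncertain to that extent.

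Library totals ran from 28.07 to 39.45 M counts. The targeted genes were checked first. Transcripts of gld-2 averaged 59.8, 48.6 and 53.5 CPM (read counts as a rate per 1000000 counts, with library totals scaled by edgeR's TMM factors) in the gld2-ccf1, the gld2-ccr4 and the gld2-parn1 libraries and 53.7 CPM in gld2, against 211 CPM in wt. The ccr-4 level was 170 CPM in gld2-ccr4, against 281 CPM in gld2. The libraries labelled gld2-ccf1 held from 15544 to 47496 CPM of ccf-1, against a mean of 31.8 CPM in gld2, and the libraries labelled gld2-parn1 held a mean of 60.6 CPM of parn-1, against 50.6 CPM in gld2. The counts of neither targeted gene were thus reduced under its label. The labels do not give the source of the ccf-1 reads, so they cannot show whether the worm's own ccf-1 transcript was reduced. The names gld2-ccf1 and gld2-parn1 stand below for the libraries so labelled. Nuclear ribosomal RNA took over 4% of the counts in 4 libraries, which were gld2-ccf1 replicate 2 (14.3%), gld2-parn1 replicate 3 (6.80%), gld2 replicate 3 (4.30%) and wt replicate 1 (7.04%).

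The family's RNA came from a small set of its genes. Levels were compared between genes as CPM per kb of exon, averaged over the 15 libraries. The 26 most abundant members spanned 30.4 to 1405 CPM per kb and held 98.9% of the family's counts. Below them came a gap, and 29 members at a middle level spanned 1.01 to 8.64 CPM per kb and held 0.841% of the counts. The other 101 members stood below 1 CPM per kb, held 0.231% of the counts, and included 36 with under 50 counts over all libraries. The bounds of 30 and 1 CPM per kb were chosen after the levels had been seen. The genes col-81, col-129, col-139 and col-159 averaged below 30 CPM per kb in gld2. They reached the abundant class through genotypes in which they were higher, and their calls are counted with that class below. Class medians were not recomputed without them. None of the 26 abundant members lies on chromosome I, while 7 each lie on IV and V, 5 on X, 4 on III and 3 on II.

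**Figure D1:**
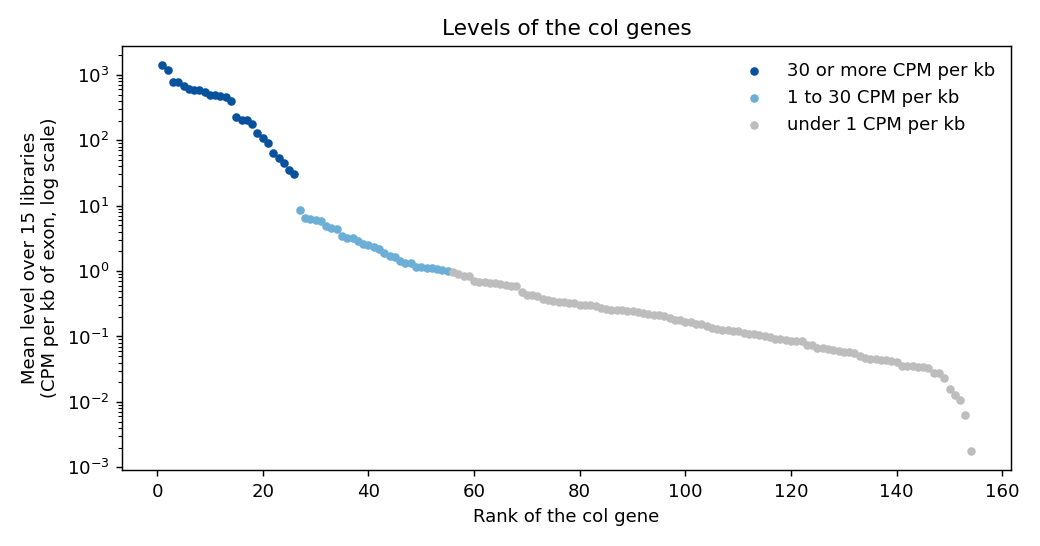
Mean level of each col gene over the 15 libraries in CPM per kb of exon (y axis, log scale) against its rank in the family (x axis), coloured by level class. The 26 abundant genes, from 30.4 to 1405 CPM per kb, stand above a gap that ends at 8.64 CPM per kb, and 2 genes with no counts are not drawn.

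In CPM per kb, col-119 had the highest mean level at 1405, followed by col-140 at 1197, col-181 at 786, col-20 at 785, col-19 at 666 and col-122 at 606. The gene col-106 stood at 596, col-8 at 586 and col-143 at 551 CPM per kb. The adult marker col-19 (WBGene00000608, WBcel235 chromosome X, bases 421707 to 422691) was therefore among the most abundant members, at an age when its protein is part of the adult cuticle. The genes col-119 (WBGene00000693, chromosome IV, bases 8978926 to 8979795) and col-140 (WBGene00000713, chromosome V, bases 5835855 to 5836834) consist of 1 and 2 exons.

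Several members with a described stage or role had few counts. The dauer gene col-2 had 46 counts over all libraries, and col-17, used in larvae, had 32. The gene col-7, described as adult-specific in early work on this family, had 57 counts. The neighbours col-126 and col-127 on chromosome IV had 0 counts in every library. The gene col-99, which encodes a transmembrane collagen with roles outside the cuticle, had 373 counts. Among genes reported as targets of BMP (DBL-1) signalling, col-41 had 182 counts and col-141 had 322, while col-142, at 49569 counts, was in the abundant class.

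Genes that lie next to each other often differed widely in level. Of the 156 members, 50 stand within 5000 bases of another member, in 29 neighbouring pairs, 20 of them on the same strand. The abundant col-20, at 785 CPM per kb, lies between col-17 at 0.0555 and col-73 at 0.221 CPM per kb. In the same way col-93, at 180 CPM per kb, lies between col-92 at 2.64 and col-94 at 2.91 CPM per kb. The run col-141, col-142 and col-143 on chromosome V stood at 0.606, 90.3 and 551 CPM per kb. The 4 pairs of col-167 to col-171 on chromosome X, by contrast, were all low, from 0.321 CPM per kb in col-167 to 0.00178 CPM per kb in col-171.

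Summed over the family, collagen RNA was lowest in gld2-ccf1 and gld2. The sum was 9507, 8300 and 5990 CPM in gld2-ccf1, replicates 1 to 3. It was 13155, 12793 and 13961 CPM in gld2-ccr4, and 16206, 10832 and 13673 CPM in gld2-parn1. In gld2 the sum was 8580, 8807 and 9051 CPM, and in wt it was 8920, 12477 and 12117 CPM. All gld2-ccr4 and gld2-parn1 libraries lay above all gld2 libraries, whereas the gld2-ccf1 libraries spread on both sides of gld2 and wt overlapped gld2 through replicate 1 only. As means, the sums were 7932 ± 1788 CPM in gld2-ccf1, 13303 ± 598 in gld2-ccr4, 13571 ± 2688 in gld2-parn1, 8812 ± 236 in gld2 and 11172 ± 1958 in wt (SD, n = 3 each). These sums are a description, and they depend on the scaling: scaled to muscle and neuron marker genes instead, the means were 6824 CPM in gld2-ccf1, 11192 CPM in gld2-ccr4, 12123 CPM in gld2-parn1, 10452 CPM in gld2 and 14250 CPM in wt.

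More members were detectable in the double mutants. Between 55 and 59 members reached 1 CPM in gld2-ccf1, 55 to 61 in gld2-ccr4 and 56 to 59 in gld2-parn1, against 47 to 52 in gld2 and 46 to 49 in wt. The 10 members with the highest mean CPM over all 15 libraries held 63.4% to 70.8% of the collagen counts of each library.

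In gld2-ccf1, gld2-parn1 and wt, the median col gene at 5 CPM or more varied more between replicates than the median of all genes at 5 CPM or more. The abundant members varied together. For the 33 members at 5 CPM or more, the median SD of log2 CPM over the 3 libraries was 0.37 in gld2-ccf1, 0.30 in gld2-parn1 and 0.33 in wt, against 0.14, 0.10 and 0.13 over all 8656 genes at 5 CPM or more in the same genotypes. Those genes were not matched more closely to the members' levels. In gld2-ccr4 and gld2 the values were 0.13 and 0.087, against 0.094 and 0.10 over all such genes. Replicate spread was therefore more than 2 times that of other genes in the first 3 genotypes, and nearer to it in gld2-ccr4 and gld2. The biological coefficient of variation from edgeR had a median of 0.182 for these members and 0.109 for all genes of that level.

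In each of the 3 variable genotypes 1 library was low for nearly the whole abundant class. Replicate 3 was the lowest gld2-ccf1 library for 26 of the 26 abundant members, replicate 2 was the lowest gld2-parn1 library for 25, and replicate 1 was the lowest wt library for 25. Their median deviations from the genotype mean were -0.39, -0.33 and -0.37 on the log2 scale. At the other end, replicate 1 was the highest library for 25 members in gld2-ccf1 and for 23 in gld2-parn1, with median deviations of 0.32 and 0.29. The exception in both gld2-parn1 and wt was col-95, whose 3 libraries had 150, 156 and 152 CPM in gld2-parn1 and 326, 261 and 160 CPM in wt. This gene was picked out after its values had been seen.

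**Figure D2:**
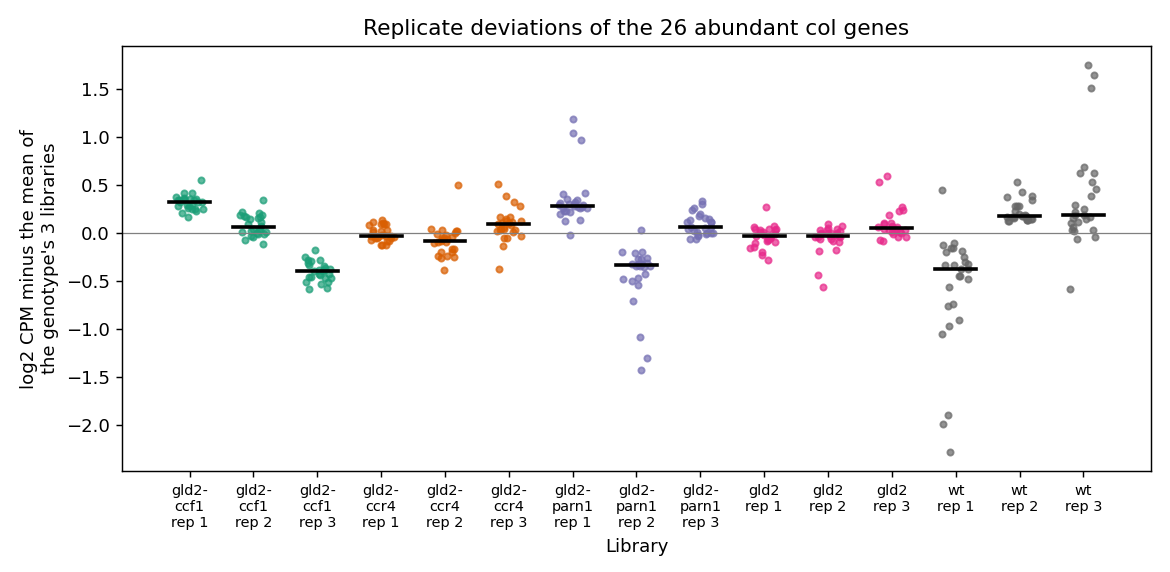
Deviation of each of the 26 abundant col genes (points) from the mean log2 CPM of its genotype, by library, with the median as a black bar. Points lie below 0 for all 26 genes in gld2-ccf1 replicate 3 and for 25 genes each in gld2-parn1 replicate 2 and wt replicate 1, while gld2-ccr4 and gld2 libraries stay close to 0.

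The median deviations of the lists of genes outside the col family were smaller in those libraries, apart from sperm markers at -0.60 in wt replicate 1. In gld2-ccf1 replicate 3 the median deviation was -0.25 for non-collagen epidermis markers, -0.26 for collagen processing enzymes, -0.24 for neuron markers and -0.17 for muscle markers. In gld2-parn1 replicate 2 it was -0.07 for the epidermis markers, -0.02 for the processing enzymes and -0.19 for muscle. In wt replicate 1 it was 0.01 for the epidermis markers, -0.05 for the processing enzymes, -0.13 for muscle and 0.14 for intestine. The share of ribosomal RNA was high in wt replicate 1 but not in the 2 low double mutant libraries, and gld2-ccf1 replicate 2, with the highest share, had a median collagen deviation of 0.06. The part of these differences in the collagen values was not tested.

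A subset of members swung far more than the rest. The genes with the largest dispersion among those whose mean was 1 CPM or more were col-81, col-129, col-139, col-133, col-74, col-149, col-159 and col-45. The gene col-129 (WBGene00000703, chromosome IV, bases 12108734 to 12110439) had 87.5, 62.7 and 57.2 CPM in gld2-ccf1, 163, 136 and 253 in gld2-ccr4, 79.3, 15.6 and 46.1 in gld2-parn1, 3.57, 2.36 and 5.0 in gld2, and 4.91, 24.7 and 61.0 in wt. Every double mutant library lay above every gld2 library, and the wt libraries ranged from the gld2 level to the gld2-ccf1 level. The gene col-81 (WBGene00000657, chromosome II, bases 11012397 to 11013767) had 44.9, 29.8 and 21.6 CPM in gld2-ccf1, 94.8, 84.7 and 125 in gld2-ccr4, 42.2, 6.93 and 22 in gld2-parn1, 1.63, 1.33 and 2.72 in gld2, and 2.26, 15.8 and 36.6 in wt. The gene col-139 (WBGene00000712, chromosome V, bases 4652863 to 4653971) had 65.5, 48.0 and 37.3 CPM in gld2-ccf1, 102, 93.0 and 146 in gld2-ccr4, 57.6, 13.9 and 31.8 in gld2-parn1, 5.15, 5.53 and 6.51 in gld2, and 3.85, 18.6 and 40.4 in wt. These 3 genes lie on chromosomes IV, II and V, and they had the same order of libraries in wt and in gld2-parn1 and the same order of genotypes by mean, with gld2-ccr4 highest and gld2 lowest.

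The gene col-159 showed the same low libraries at a smaller amplitude, with 24.2, 20.6 and 12.1 CPM in gld2-ccf1, 59.2, 51.6 and 74.1 in gld2-ccr4, 53.1, 24.6 and 49.2 in gld2-parn1, 8.67, 7.32 and 8.84 in gld2, and 15.3, 36.3 and 48.1 in wt. It overlaps the more abundant col-160 on the same strand, so reads of the pair may not be fully separated. The gene col-124 had 382, 284 and 247 CPM in gld2-ccf1, 950, 808 and 1040 in gld2-ccr4, 989, 510 and 802 in gld2-parn1, 187, 214 and 264 in gld2, and 236, 656 and 750 in wt. Its wt replicate 1 was thus at the gld2 level while the other wt libraries were near the gld2-ccr4 and gld2-parn1 levels. Not every variable member followed this order: col-74 was highest in wt replicate 1 (3.42, 0.870 and 1.13 CPM, replicates 1 to 3) and lay between 0.377 and 1.22 CPM in all other genotypes.

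**Figure D3:**
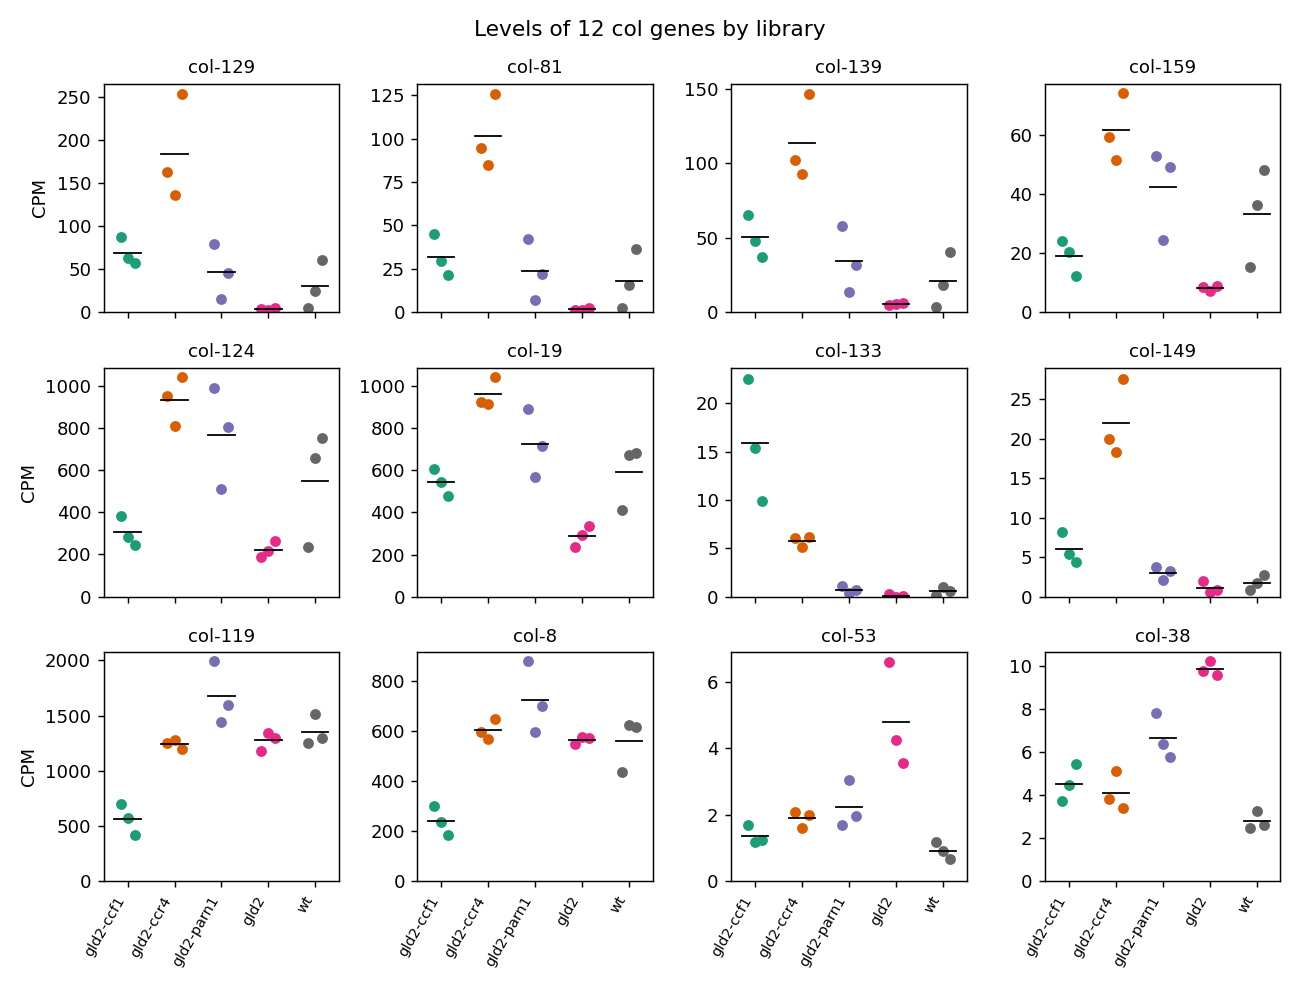
CPM of 12 col genes in each library (points, replicates 1 to 3 from left to right) with the genotype mean (bar), on a linear axis from 0. The first row shows genes that are low in gld2 and in 1 library each of gld2-parn1 and wt, such as col-129 at 2.36 to 5.0 CPM in gld2, and the lowest row shows col-119 and col-8, low in gld2-ccf1, and col-53 and col-38, highest in gld2.

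Between gld2 and wt, 10 of the 26 abundant collagens were called lower in gld2 and 0 higher, while middle-level members were called in both directions. Each adjusted p comes from edgeR's quasi-likelihood test over all 15 libraries, with Benjamini-Hochberg adjustment over the 16888 genes tested, and called means an adjusted p under 0.05. Of the 106 members tested, 17 were called higher and 21 lower, which is 35.8% called, where 49% of all genes tested were called (28.8% higher and 20.2% lower). The members' median log2 fold change was -0.21, against 0.14 over all genes tested. Among the 26 abundant members edgeR called 0 higher and 10 lower, with a median of -0.31, and 22 of them were below 0. At an unadjusted p under 0.05 there were 0 higher and 12 lower, and DESeq2 called 0 and 13. The 10 called by edgeR include col-129, col-81 and col-159, which averaged below 30 CPM per kb in gld2. The edgeR count of 10 ranged from 5 to 13 on leaving out single libraries, with 5 without gld2 replicate 2, 5 without wt replicate 3 and 6 without gld2 replicate 1, and the median was -0.56 without the 4 libraries of over 4% ribosomal RNA. Of the 29 middle-level members 8 were called higher and 7 lower, which is close to the shares over all genes, and 15 were above 0 and 14 below.

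The adult marker col-19 had 234, 294 and 333 CPM in gld2, against 413, 673 and 684 CPM in wt. The groups did not overlap, as the rule that named members by change required, and its log2 fold change was -1.04 (adjusted p = 0.00202, SE 0.22). The gene col-166 (WBGene00000739, chromosome X, bases 6280016 to 6280921) had 2.49, 3.02 and 2.97 CPM in gld2, against 9.56, 9.02 and 9.20 CPM in wt, and fell by 1.71 (SE 0.18, adjusted p = 1.54e-07). Its 3 wt libraries lay close together, unlike those of the members that swung. The genes col-96, col-155, col-118, col-179 and col-93 fell by 1.34, 1.19, 1.02, 0.99 and 0.97, with adjusted p from 2.36e-05 (col-96) to 0.00959 (col-179). The fall of col-159 was 2.01 (SE 0.44, adjusted p = 0.00278). The genes col-129, col-81 and col-124 were called lower by 3.06, 3.28 and 1.30 (adjusted p = 0.0131, 0.0146 and 0.0181), but without wt replicate 3 these changes were -2.03, -2.26 and -1.01 with adjusted p of 0.0673, 0.0731 and 0.0736. Their calls were also lost without gld2 replicate 2, with adjusted p of 0.0516, 0.0548 and 0.0552, those of col-81 and col-124 without gld2 replicate 1 (0.0523 and 0.0655), and that of col-124 without wt replicate 2 (0.0616). With only the 6 libraries compared none of these 3 genes was called.

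Members higher in gld2 than in wt were of middle or low level. The gene col-83 had 2.27, 3.12 and 2.81 CPM in gld2, against 0.266, 0.383 and 0.275 CPM in wt, a log2 fold change of 3.14 (adjusted p = 1.83e-07, SE 0.34). It met the naming rule's mean of 1 CPM through its gld2 libraries. The gene col-38 (WBGene00000615, chromosome II, bases 8568035 to 8569088) had 9.77, 10.2 and 9.56 CPM in gld2, against 2.46, 3.27 and 2.59 CPM in wt, a log2 fold change of 1.83 (adjusted p = 6.24e-07, SE 0.22). Its replicates were tight in both genotypes. The genes col-53, col-76, col-71, col-111 and col-158 rose by 2.40, 1.64, 1.26, 0.95 and 0.86, with adjusted p from 4.19e-06 (col-53) to 0.00503 (col-158).

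Of the 17 members called higher in gld2, 10 overlap exons of another gene, as do 38 of the 106 tested. The gene col-83 overlaps F33A8.4 on the same strand, which had 52010 counts in all, against the 861 of col-83, and F33A8.4 had a log2 fold change of -0.15 (adjusted p = 0.108). The gene col-53 overlaps F55F8.2 on the other strand, with 86656 counts against 1255, and F55F8.2 fell by 0.33 (adjusted p = 0.00169). The gene col-111 overlaps psr-1 on the other strand, which fell by 0.77 (adjusted p = 9.55e-07), while col-158 overlaps nphp-4, which rose by 1.84 (adjusted p = 0.000950). The genes col-38 and col-76 overlap no other gene. Whether reads were counted by strand is not given in the sources used here, so values of the overlapping members may hold reads of the partner. The genes col-36, col-56 and col-128 had 24, 16 and 44 counts in gld2 and were listed at 0 in all wt libraries, as were other low members such as col-9, col-50 and col-152. Of the first 3, col-36 overlaps dyf-13 on the same strand and col-128 overlaps F12F6.17 on the other strand.

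In gld2-ccf1 abundant members were called in both directions against gld2. Of the 106 members 22 were called higher and 10 lower than in gld2, or 30.2% called, where 36.5% of all genes were called (19.8% higher and 16.7% lower). The members' median log2 fold change was 0.09, against 0.00 over all genes. The abundant class held 6 higher, 4 lower and 16 uncalled members, which is close to the shares over all genes. By DESeq2 7 were lower, and 10 were higher without gld2-ccf1 replicate 3. The class median of 0.06 was -0.08 without gld2-ccf1 replicate 1 and 0.25 without replicate 3. The lower ones were col-8, col-119, col-178 and col-95, and the higher ones were col-129, col-81, col-139, col-142, col-160 and col-19. Of these, col-129, col-81 and col-139 were in the class through genotypes in which they were higher than in gld2. Scaling to muscle and neuron marker genes, which moved the median of all genes to -0.43 in gld2-ccf1, to -0.49 in gld2-ccr4 and to -0.37 in gld2-parn1 against gld2, put the members' median at -0.35. The split of all members was then 21 higher and 26 lower, and that of the abundant class 7 and 14.

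The most abundant member, col-119, had 701, 569 and 419 CPM in gld2-ccf1, against 1183, 1343 and 1300 CPM in gld2. It fell by 1.18 (log2, SE 0.16), a level 2.27-fold lower (adjusted p = 0.000138). The gene col-8 had 301, 238 and 187 CPM in gld2-ccf1, against 548, 579 and 573 CPM in gld2, and fell by 1.23 (SE 0.19, adjusted p = 0.000386). The gene col-178 fell by 0.95 (SE 0.17, adjusted p = 0.000974). None of these 3 genes was called between gld2 and wt, with log2 fold changes of -0.09 for col-119, 0.02 for col-8 and -0.24 for col-178. All were also lower in gld2-ccf1 than in wt, by 1.27, 1.21 and 1.19 (adjusted p = 3.55e-05, 0.000223 and 9.45e-05), in a comparison that shares the gld2-ccf1 libraries.

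Several scarcer members rose strongly in gld2-ccf1. The gene col-133 (WBGene00000707, chromosome IV, bases 14098325 to 14099356) had 22.5, 15.4 and 9.93 CPM in gld2-ccf1, against 0.263, 0 and 0.0556 CPM in gld2, a log2 fold change of 7.13 (adjusted p = 1.88e-06, SE 0.67). Its wt libraries had 0.199, 1.01 and 0.606 CPM. The gene col-92 had 7.02, 7.0 and 4.44 CPM in gld2-ccf1, against 0.359, 0.230 and 0.222 CPM in gld2, a log2 fold change of 4.48 (adjusted p = 6.91e-07, SE 0.47). Both were thus close to undetected in gld2. The genes col-133, col-92, col-147, col-180 and col-12 had 13, 32, 25, 19 and 30 counts over the gld2 libraries. They met the naming rule's mean of 1 CPM over the 6 libraries through gld2-ccf1. The genes col-129, col-147, col-81, col-180, col-12 and col-139 rose by 4.25, 4.25, 4.09, 3.92, 3.15 and 3.13, with adjusted p from 1.70e-06 (col-147) to 0.00747 (col-139). The numbers in the count table's column headers have a break, after which come gld2-ccf1 replicates 1 and 3, gld2-ccr4 replicate 3 and gld2-parn1 replicate 1. Leaving out these 4 libraries, which leaves 1 gld2-ccf1 library, ended the calls of col-81 (0.0677) and col-139 (0.0732) and that of col-19 (0.0804). The gene col-12 is known for its peak late in each moult, and the neighbouring col-13, with the same timing, was called higher by 2.93 (SE 1.07, adjusted p = 0.0385) on 34 counts in gld2-ccf1 against 5 in gld2. That call of col-13 was lost without gld2-ccf1 replicate 1 (adjusted p = 0.174) and without gld2 replicate 1, 2 or 3 (0.0839, 0.113 and 0.0767).

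The gene col-142 (WBGene00000715, chromosome V, bases 6831177 to 6832256) was the 1 abundant member called higher than in both gld2 and wt. It had 207, 158 and 124 CPM in gld2-ccf1, against 31.3, 35.0 and 42.5 CPM in gld2 and 23.2, 43.1 and 60.4 CPM in wt. Its log2 fold change was 2.17 against gld2 (SE 0.34, adjusted p = 0.000599) and 1.95 against wt (adjusted p = 0.000668). The gene col-19 had 606, 546 and 479 CPM in gld2-ccf1, above the 234 to 333 CPM of gld2, a log2 fold change of 0.92 (adjusted p = 0.00655, SE 0.22). Among the middle-level members high in gld2, col-53, col-76, col-111 and col-38 fell by 1.81, 1.68, 1.15 and 1.12 in gld2-ccf1, with adjusted p of 0.000163, 1.09e-05, 0.00111 and 0.000313, and col-111 missed the threshold without the libraries after the break (0.159). The gene col-104 fell by 1.39 (adjusted p = 0.0148), a call lost without gld2-ccf1 replicate 1 (0.0671) and without gld2 replicate 3 (0.0744), as well as without the libraries of over 4% ribosomal RNA (0.118) and those after the break (0.205). The fall of col-71 (0.69, adjusted p = 0.0183) was lost without gld2-ccf1 replicate 3 (0.0906) and gld2 replicate 1 or 2 (0.0652 and 0.0786).

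More col genes were called higher than lower in gld2-ccr4 against gld2. Of the 106 members 34 were called higher and 6 lower, or 37.7% called, where 20.3% of all genes were called (11.1% higher and 9.23% lower). The members' median log2 fold change was 0.46, against 0.00 over all genes, and it was -0.05, against -0.49 over all genes, under the muscle and neuron scaling. In the abundant class edgeR called 14 members higher and 0 lower, with a median of 0.56 and 24 of 26 above 0. At an unadjusted p under 0.05 there were 17 higher and 1 lower, and DESeq2 called 17 and 1. The 14 called by edgeR include col-129, col-81 and col-139, in the class through genotypes in which they were higher than in gld2. The edgeR count of 14 ranged from 9 to 18 on leaving out single libraries, with 9 without gld2 replicate 1, and was 8 without the 4 libraries of over 4% ribosomal RNA. With that scaling the split was 28 higher and 21 lower, with 12 and 5 in the abundant class and a class median of 0.06.

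The largest rises among the named members were those of col-81 and col-129, which were among the members that swung in wt. The genes col-81 and col-129 rose by 5.75 (SE 1.0, adjusted p = 0.00259) and 5.66 (SE 0.93, adjusted p = 0.00182), which is 53.9-fold and 50.7-fold. The rises of col-133, col-180, col-139, col-149, col-92 and col-12 were 5.66, 4.89, 4.31, 4.28, 3.86 and 3.09, with adjusted p from 8.08e-07 (col-180) to 0.00306 (col-139). The gene col-149 had 20.0, 18.3 and 27.6 CPM in gld2-ccr4, against 1.96, 0.538 and 0.862 CPM in gld2, and the gene col-180 had 4.79, 5.40 and 4.42 CPM, against 0.263, 0.128 and 0.0834 CPM. None of these libraries overlapped between the groups, as the rule that named members by change required. The genes col-180, col-133, col-92 and col-12 had 19, 13, 32 and 30 counts over the gld2 libraries. They met that rule's mean of 1 CPM through their gld2-ccr4 libraries.

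Among the most abundant members, col-19 had 923, 912 and 1044 CPM in gld2-ccr4, against 234, 294 and 333 CPM in gld2. Its log2 fold change was 1.74 (SE 0.22, adjusted p = 0.000286), or 3.34-fold. The gene col-124 rose by 2.07 (SE 0.40, adjusted p = 0.00476) and col-142 by 1.82 (SE 0.34, adjusted p = 0.00371). By contrast col-119 had 1249, 1277 and 1199 CPM in gld2-ccr4, against 1183, 1343 and 1300 CPM in gld2, a log2 fold change of -0.04 (adjusted p = 0.902, SE 0.16). The genes col-8, col-178 and col-101 likewise had log2 fold changes of 0.09, 0.12 and 0.09 that did not pass the test, and all 3 were called lower under the muscle and neuron scaling (-0.40, -0.38 and -0.40). The calls of col-122 (0.59, adjusted p = 0.0346) and col-143 (0.52, adjusted p = 0.031) were close to the threshold and were lost on leaving out any 1 gld2-ccr4 or gld2 library, with adjusted p from 0.054 (col-143 without gld2 replicate 3) to 0.106 (col-122 without gld2 replicate 3). Under the muscle and neuron scaling they were at 0.10 and 0.02. The calls of col-20 (0.88, adjusted p = 0.0142), col-80 (0.89, adjusted p = 0.0167) and col-179 (1.02, adjusted p = 0.0216) passed the threshold on some of those omissions and missed it on others, and all 3 missed it without the libraries of over 4% ribosomal RNA (0.0521, 0.0628 and 0.0576). The omissions that ended these calls were gld2-ccr4 replicate 3 (0.0504 for col-20, 0.062 for col-179), gld2-ccr4 replicate 1 (0.0512 for col-80, 0.0631 for col-179), gld2 replicate 1 (0.0573 for col-20, 0.0538 for col-80, 0.0644 for col-179), and gld2 replicates 2 and 3 (0.0544 and 0.0504 for col-80, 0.074 and 0.0558 for col-179).

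The 6 members lower in gld2-ccr4 were col-53, col-38, col-83, col-111, col-71 and col-158, at log2 fold changes of -1.35, -1.26, -1.16, -1.12, -0.77 and -0.71. All 6 are among the members called higher in gld2 than in wt, in comparisons that share the gld2 libraries. Only col-38 of them overlaps no other gene. It had 3.82, 5.13 and 3.40 CPM in gld2-ccr4, against 9.77, 10.2 and 9.56 CPM in gld2 and 2.46, 3.27 and 2.59 CPM in wt, so its gld2-ccr4 libraries were all below gld2 and above wt (adjusted p = 0.00026 against gld2 and 0.0332 against wt). The calls of col-71 (adjusted p = 0.0167) and col-158 (adjusted p = 0.0366) were lost without gld2 replicate 1 (0.0651 and 0.139), without gld2 replicate 2 (0.0721 and 0.0918), without gld2-ccr4 replicate 1 (0.0514 and 0.0661) and without replicate 2 (0.0822 and 0.0655), and that of col-158 also without replicate 3 (0.142). Without the libraries after the break col-158 and col-83 were not called (0.170 and 0.0712).

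In gld2-parn1 nearly all called collagens were higher than in gld2. Of the 106 members 20 were called higher and 1 lower, or 19.8% called, where 9.79% of all genes were called (4.9% higher and 4.9% lower). The members' median log2 fold change was 0.53, against 0.02 over all genes. In the abundant class edgeR called 11 higher and 0 lower, with a median of 0.60 and 25 of 26 above 0. At an unadjusted p under 0.05 there were 22 higher and 1 lower, and DESeq2 called 22 and 1. The 11 called by edgeR include col-129, col-81 and col-159, in the class through genotypes in which they were higher than in gld2. The number of members called higher was 7 without gld2-parn1 replicate 1, 9 without gld2-parn1 replicate 3, and 10, 6 and 12 without gld2 replicates 1, 2 and 3. The abundant count of 11 was 4, 5, 4, 4 and 7 without those same 5 libraries, 18 without gld2-ccf1 replicate 3, 3 without the 4 libraries of over 4% ribosomal RNA and 5 without those after the break. The number of members called higher was 8 without the 4 libraries of over 4% ribosomal RNA, 8 without the libraries after the break, and 33 with DESeq2. Of the 20 named members called in this comparison, 2 (col-92 and col-166) kept their call in every setting tried. The abundant median stayed between 0.48 and 0.76 on leaving out any 1 library, and under the muscle and neuron scaling it was 0.19, against -0.37 over all genes.

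The gene col-19 had 892, 569 and 713 CPM in gld2-parn1, against 234, 294 and 333 CPM in gld2, a log2 fold change of 1.34 (adjusted p = 0.00385, SE 0.22). The gene col-92 had 2.55, 0.767 and 2.18 CPM in gld2-parn1, against 0.359, 0.230 and 0.222 CPM in gld2, a log2 fold change of 2.73 (adjusted p = 0.00123, SE 0.47). It met the naming rule's mean of 1 CPM through its gld2-parn1 libraries. The gene col-159 rose by 2.35 (SE 0.44, adjusted p = 0.00858). Without the libraries after the break, col-19 and col-159 were at 1.15 and 2.14 and missed the threshold (0.0567 and 0.0712). The genes col-129, col-81 and col-124 were called higher by 3.70, 3.65 and 1.79 (adjusted p = 0.0259, 0.0383 and 0.0197), and their gld2-parn1 libraries all lay above all gld2 libraries, as the rule that named members by change required. Without gld2-parn1 replicate 1 their adjusted p were 0.0904, 0.131 and 0.0755, without replicate 3 they were 0.0671, 0.0889 and 0.0628, without gld2 replicate 1 they were 0.0961, 0.129 and 0.0837, and without gld2 replicate 2 they were 0.0968, 0.125 and 0.0708. Without gld2 replicate 3 those of col-129 and col-81 were 0.0641 and 0.0842. The calls of col-142 (1.40, adjusted p = 0.027) and col-34 (1.61, adjusted p = 0.0199) were lost without gld2-parn1 replicate 1 (0.0992 and 0.0628), without gld2-parn1 replicate 3 (0.0906 and 0.0974), and without gld2 replicate 1 (0.104 and 0.0505), 2 (0.0877 and 0.0739) or 3 (0.0534 and 0.0621). The 1 lower member, col-53 (-1.10, adjusted p = 0.0256), missed the threshold without gld2-parn1 replicate 1 (0.129) or 3 (0.111) and without gld2 replicate 1 (0.165) or 2 (0.0503).

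**Figure D4:**
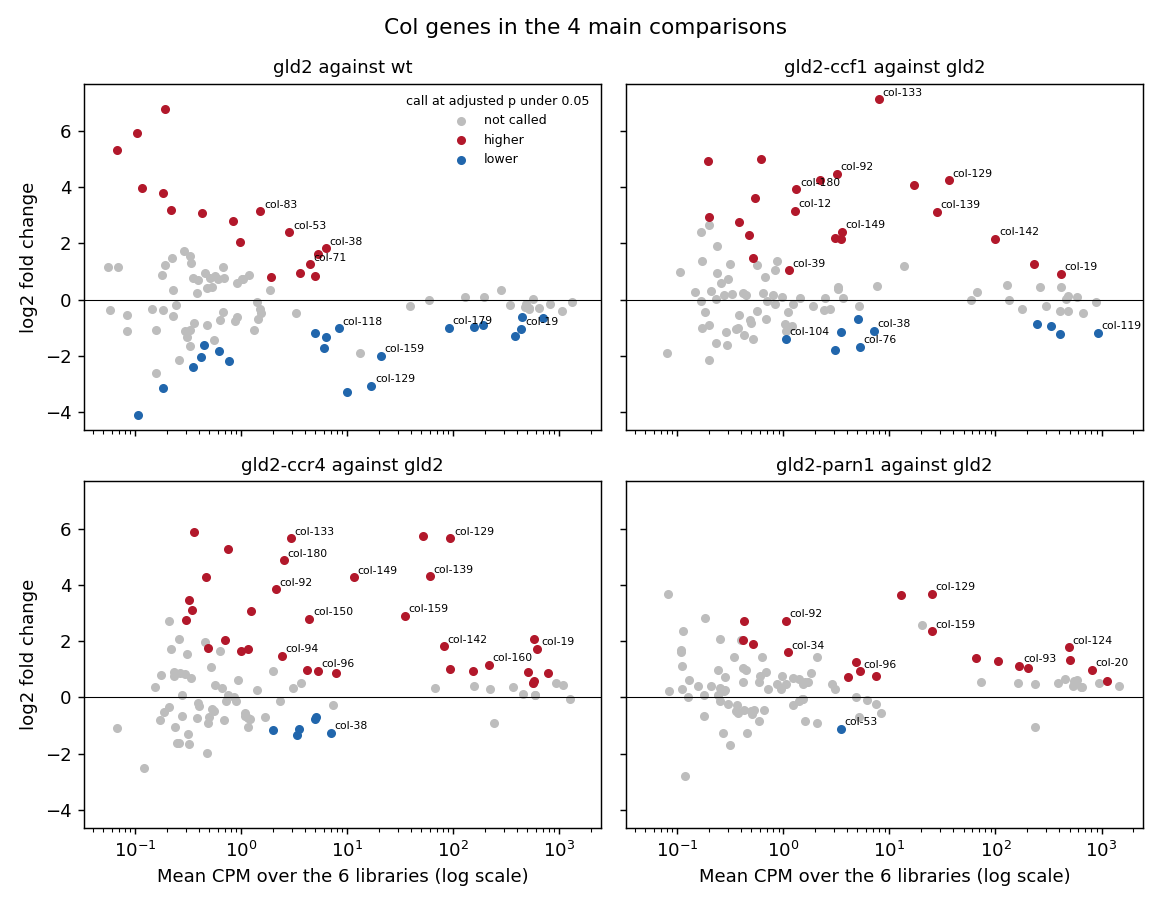
Log2 fold change (y axis) against mean CPM over the 6 libraries compared (x axis, log scale) for the 106 tested col genes in gld2 against wt and in each double mutant against gld2, coloured by call. The abundant genes at the right lie mostly below 0 in gld2 against wt (10 lower, 0 higher) and mostly above 0 in gld2-ccr4 and gld2-parn1 against gld2 (14 and 11 higher, 0 lower, or 12 and 11 higher, 5 and 1 lower under the muscle and neuron scaling), and they lie on both sides in gld2-ccf1 (6 higher, 4 lower).

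Set against wt, the abundant collagens had medians of -0.35 in gld2-ccf1, 0.28 in gld2-ccr4 and 0.34 in gld2-parn1, and of -0.93, -0.32 and -0.17 under the muscle and neuron scaling, so the sign turned in gld2-ccr4 and gld2-parn1. These medians also moved with single libraries: that of gld2-ccf1 was -0.16 without gld2-ccf1 replicate 3, those of gld2-ccr4 and gld2-parn1 were both 0.15 without wt replicate 1, and that of gld2-parn1 was 0.15 without gld2-parn1 replicate 1. Without the 4 libraries of over 4% ribosomal RNA they were -0.56 in gld2-ccf1, 0.08 in gld2-ccr4 and 0.09 in gld2-parn1, and without those after the break the gld2-parn1 median was 0.15. In gld2-ccf1 against wt 25 members were called higher and 15 lower (51.8% of all genes called, 32.1% higher and 19.7% lower), and the abundant class had 1 higher, col-142, and 8 lower. The count of 15 was 9 without wt replicate 2, and the count of 8 was 5, 4, 4 and 5 without gld2-ccf1 replicates 2 and 3 and wt replicates 2 and 3. It was 4 with no filter on low counts and 4 without the libraries after the break, and the 1 higher member became 2 without those libraries or gld2-ccf1 replicate 3 and 3 without wt replicate 3. In gld2-ccr4 against wt 27 members were called higher and 4 lower (50.8% of all genes called, 30% higher and 20.8% lower), and the abundant class had 5 higher (col-129, col-139, col-142, col-19 and col-81) and 0 lower, with 5 and 0 by DESeq2 and at an unadjusted p under 0.05. Of these 5, col-129, col-139 and col-81 averaged below 30 CPM per kb in wt and were in the class through their levels in the double mutants. The count of 5 was 1 without the libraries of over 4% ribosomal RNA, 2 without those after the break and 2 without gld2-ccr4 replicate 3 or wt replicate 2, and the 4 lower members were 2 without gld2-ccr4 replicate 3. In gld2-parn1 against wt 22 members were called higher and 1 lower (50.4% of all genes called, 28.9% higher and 21.5% lower), and the abundant class had col-142 higher and 0 lower by edgeR, 3 and 1 by DESeq2, and 2 and 1 at an unadjusted p under 0.05. The count of 1 higher abundant member was 6 without gld2-parn1 replicate 2, 5 without gld2-ccf1 replicate 3, 2 without wt replicate 3, and 0 with only the 6 libraries compared, without the libraries of over 4% ribosomal RNA or without those after the break. The 1 lower member was 0 without gld2-parn1 replicate 3 or wt replicate 1 and 2 without gld2-ccr4 replicate 2. The member col-142 was thus called higher than wt in all 3 double mutants, which share the wt libraries, at log2 fold changes of 1.95, 1.60 and 1.18 by edgeR (adjusted p = 0.000668, 0.0024 and 0.0131), while gld2 itself was at -0.22 (adjusted p = 0.623). Under the muscle and neuron scaling the abundant class had 21 members lower than wt in gld2-ccf1, 11 in gld2-ccr4 and 6 with gld2-parn1.

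The double mutants were also compared with each other, in 3 comparisons added after the data had been seen. In gld2-ccf1 against gld2-ccr4 3 members were called higher and 18 lower (26% of all genes called, 14.4% higher and 11.6% lower), and in the abundant class 0 were higher and 12 lower, with a median of -0.69. The 3 higher members were 5 without gld2-ccf1 replicate 3 or gld2-ccr4 replicate 2. In gld2-ccf1 against gld2-parn1 12 were called higher and 20 lower (37.1% of all genes called, 20% higher and 17.2% lower), and in the abundant class 0 were higher and 11 lower, with a median of -0.60, or 7 lower and -0.38 without the libraries after the break. By DESeq2 the abundant class had 0 higher and 16 lower against gld2-ccr4 and 0 and 17 against gld2-parn1, and at an unadjusted p under 0.05 it had 0 and 14, and 1 and 15. The members col-119, col-8, col-178, col-20, col-181, col-106, col-140, col-122, col-124 and col-184 were lower in gld2-ccf1 in both, and col-8, for example, had log2 fold changes of -1.32 against gld2-ccr4 (adjusted p = 0.000484) and -1.59 against gld2-parn1 (adjusted p = 6.52e-05). In gld2-ccr4 against gld2-parn1 6 were called higher and 3 lower (13.3% of all genes called, 7.34% higher and 5.95% lower), and 0 and 0 in the abundant class by edgeR, where DESeq2 called 0 and 2 and 3 and 2 passed an unadjusted p under 0.05. Those counts were 3 and 0 without wt replicate 1 and 0 and 3 without gld2-ccf1 replicate 3. The 6 higher members were 10 without wt replicate 1, and the 3 lower were 6 without gld2-ccf1 replicate 3 and 1 without gld2-ccr4 replicate 1, gld2-parn1 replicate 1 or gld2-parn1 replicate 2. The members called higher in gld2-ccr4 there included col-149, col-180, col-12 and col-133, at 2.85, 2.84, 2.87 and 2.95 (adjusted p from 9.93e-05 for col-180 to 0.00205 for col-133). The abundant classes of gld2-ccf1 against either other double mutant had the same sign under the muscle and neuron scaling, with medians of -0.66 and -0.65.

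**Figure D5:**
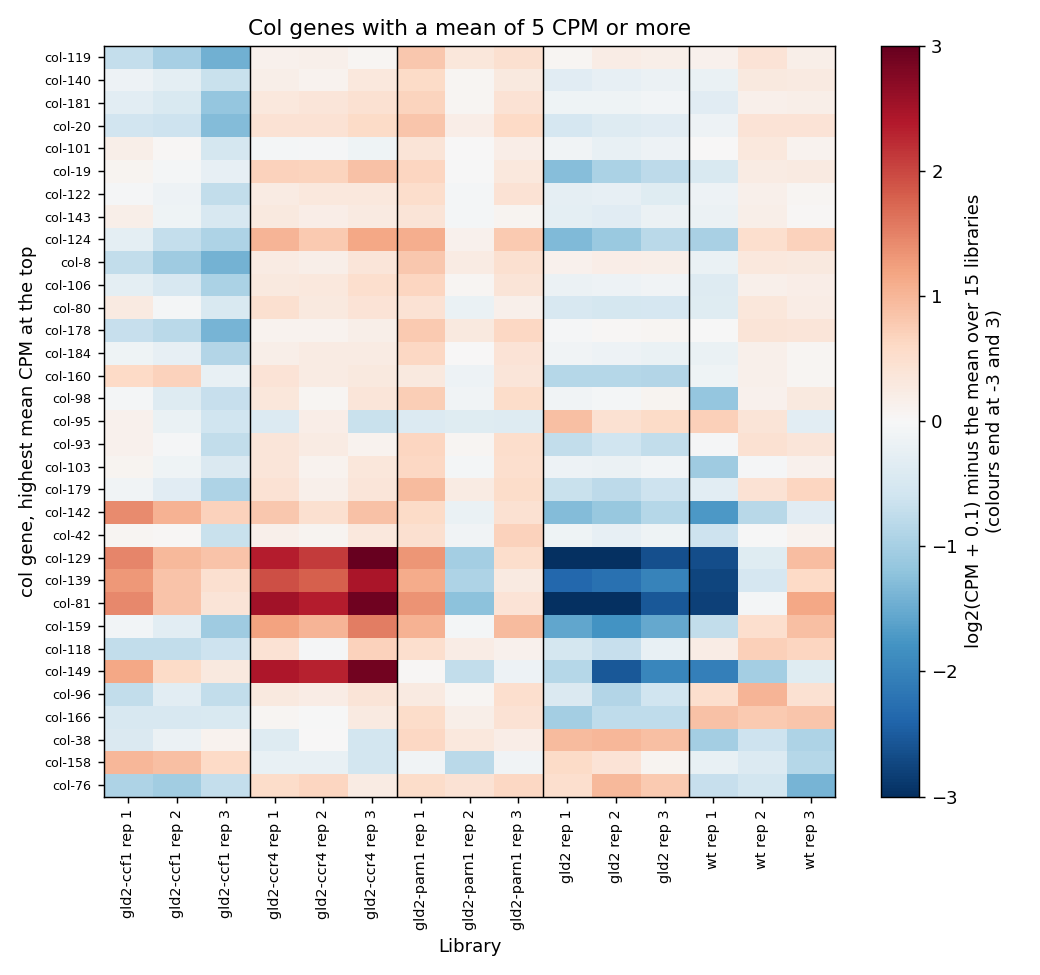
Log2(CPM + 0.1) of the 33 col genes averaging 5 CPM or more (rows, highest mean at the top), minus the gene's mean over the 15 libraries (columns), with colours ending at -3 and 3. Most of the upper rows are blue in gld2-ccf1 replicate 3 and pale to mid red in the gld2-ccr4 libraries and in gld2-parn1 replicates 1 and 3, while col-129, col-139 and col-81 are dark blue in gld2 and wt replicate 1 and dark red in gld2-ccr4.

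The other genes that build the cuticle were read from lists, whose members are known to act in collagen structure, processing or timing. Their counts were not recomputed under the muscle and neuron scaling, whose shift in the median of all genes is given above. Beside them stand the shares over all genes tested, which were 28.8% called higher and 20.2% lower in gld2 against wt. Against gld2 these shares were 19.8% higher and 16.7% lower for gld2-ccf1, 11.1% higher and 9.23% lower for gld2-ccr4, and 4.9% each way for gld2-parn1. Of the 19 tested cuticle collagens outside the col family (22 listed), 4 were called higher and 3 lower in gld2 than in wt. Against gld2, 3 were higher and 3 lower in gld2-ccf1, 1 and 3 with gld2-ccr4, and 1 and 2 with gld2-parn1, so this group had no common direction. The list's summed level was 41.6 to 51.4 CPM in gld2-ccf1, 22.3 to 25.9 CPM in gld2-ccr4, 29.0 to 31.1 CPM in gld2-parn1, 40.9 to 49.2 CPM in gld2 and 30.1 to 50.8 CPM in wt, far below the col genes. Within it dpy-17, whose loss gives a short and thick body, averaged 12.4 ± 0.555 CPM in gld2-ccf1, 4.45 ± 0.558 in gld2-ccr4, 9.80 ± 2.07 in gld2-parn1, 25.1 ± 1.21 in gld2 and 11 ± 4.30 in wt (SD, n = 3 each). It rose by 1.20 in gld2 against wt (adjusted p = 6.13e-05) and fell by 1.02, 2.49 and 1.36 in the double mutants against gld2. The adult blister gene bli-6 ran the other way, with log2 fold changes of 3.56, 2.14 and 1.30 against gld2 (adjusted p = 3.66e-06, 0.000937 and 0.0444). The furrow collagen dpy-10 fell by 1.57 in gld2 against wt, rose by 1.48 in gld2-ccf1 against gld2, and fell by 0.72 in gld2-ccr4 against gld2.

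More collagen processing enzymes were called higher than lower in gld2, while the list's summed level overlapped that of wt. The sum was 831 to 880 CPM in gld2 and 848 to 874 CPM in wt. Of 15 tested, 9 were called higher and 1 lower in gld2 than in wt, where 28.8% of all genes were called higher and 20.2% lower. The prolyl 4-hydroxylase dpy-18 averaged 40.2 ± 5.51 CPM in gld2 and 20.8 ± 1.61 CPM in wt, a log2 fold change of 0.95 (adjusted p = 1.63e-05, SE 0.15), and the dual oxidase bli-3, which cross-links the cuticle, averaged 44.3 ± 2.89 CPM in gld2 and 25.1 ± 3.37 CPM in wt (0.82, SE 0.13). The 1 lower gene was pdi-2, which encodes the disulphide isomerase subunit of the hydroxylase, at 210 ± 18.2 CPM in gld2 and 377 ± 29.0 CPM in wt (-0.84, SE 0.10). Against gld2, 1 was higher and 4 lower in gld2-ccf1, 3 and 4 with gld2-ccr4, and 1 and 0 with gld2-parn1 (2 and 4 at an unadjusted p under 0.05). The 26 abundant col genes, by comparison, had 0 higher and 10 lower in gld2 than in wt. The second hydroxylase gene, phy-2, rose in gld2-ccr4 and gld2-parn1, by 0.61 and 0.54 (adjusted p = 0.00488 and 0.0233).

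Of 24 tested regulators of collagen and moulting genes, 14 were called higher and 2 lower in gld2-ccf1 than in gld2, where 36.5% of all genes were called. The counts were 2 and 2 in gld2-ccr4, 1 and 0 in gld2-parn1 (3 and 2 at an unadjusted p under 0.05), and 5 and 5 in gld2 against wt, where 20.3%, 9.79% and 49% of all genes were called, and differences between these comparisons were not tested. The list's summed level was 592, 824 and 543 CPM in gld2-ccf1, against 511, 467 and 466 CPM in gld2. All gld2-ccf1 libraries lay above all gld2 libraries, and the highest was replicate 2, the library with 14.3% ribosomal RNA, whose part in the counts was not tested. The epidermal fate gene lin-26 averaged 84.8 ± 10.7 CPM in gld2-ccf1, 60.5 ± 5.65 in gld2-ccr4 and 49.5 ± 2.88 in gld2, against 79.3 ± 9.03 in wt. Its log2 fold changes were 0.77 and 0.29 in gld2-ccf1 and gld2-ccr4 against gld2. The heterochronic gene lin-29, which activates col-19, averaged 2.25 ± 0.921 CPM in gld2-ccf1, against 1.17 ± 0.314 CPM in gld2 (0.94, SE 0.33, adjusted p = 0.029). The moulting receptor nhr-23 averaged 16.4 ± 0.254 CPM in gld2, against 39.1 ± 7.05 CPM in wt (-1.25, SE 0.23), and the BMP signal transducer sma-3 averaged 16 ± 1.38 CPM in gld2, against 5.03 ± 0.632 CPM in wt (1.67, SE 0.18).

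Genes of moulting and of the apical matrix gave 5 higher and 4 lower of 23 tested in gld2 against wt. They gave 2 and 1 for gld2-ccf1 against gld2, 1 and 1 for gld2-ccr4, and 0 and 0 for gld2-parn1 by edgeR (1 and 1 at an unadjusted p under 0.05). Over all genes, 28.8% were called higher and 20.2% lower in gld2 against wt. Against gld2 the shares were 19.8% and 16.7% for gld2-ccf1, 11.1% and 9.23% for gld2-ccr4, and 4.9% each way for gld2-parn1. The moulting protease nas-37 fell by 1.21 in gld2 against wt (11.8 ± 0.936 CPM in gld2 and 27.3 ± 2.86 CPM in wt), and noah-1, of the embryonic and larval matrix, rose by 1.05. Of 3 basement membrane collagens, 2 were higher and 1 lower in gld2-ccf1 than in gld2, 2 and 0 in gld2-ccr4, 1 and 0 in gld2-parn1, and 1 and 0 in gld2 against wt. In the double mutants against gld2, the type IV collagens, made mainly by muscle and the somatic gonad, were the higher ones. There emb-9 rose by 0.39, 0.81 and 0.40 in the 3 double mutants, and let-2 by 0.54 and 0.68 in gld2-ccf1 and gld2-ccr4.

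Markers of other tissues moved with these comparisons and their part in the collagen values was not tested. Of 30 muscle markers 21, 21 and 14 were called higher and 1, 1 and 0 lower in gld2-ccf1, in gld2-ccr4 and in gld2-parn1 than in gld2, with medians of 0.64, 0.56 and 0.46, and summed levels of 7097 to 9690, 8205 to 9481 and 6574 to 8759 CPM, against 5206 to 5466 CPM in gld2. Of 20 intestine markers 10, 9 and 7 were called higher and 3, 1 and 0 lower, with medians of 0.53, 0.56 and 0.39. Of 17 epidermis markers outside the collagens, the tissue that makes the cuticle, 7, 1 and 1 were called higher and 4, 5 and 1 lower, with medians of -0.03, -0.01 and -0.12. Of 36 neuron markers 8, 6 and 3 were higher and 2, 3 and 2 lower, and of 20 germline markers 13, 4 and 3 were higher and 1 each lower. In gld2 against wt, 1 muscle marker was higher and 9 lower, 2 intestine markers were higher and 14 lower, 6 epidermis markers were higher and 2 lower, and 13 neuron markers were higher and 2 lower. In the same comparison 18 of 20 germline markers were lower and 20 of 20 tested sperm markers were higher, with sperm sums of 253 to 313 CPM in gld2, against 3.79 to 7.93 CPM in wt. Of the sperm markers 0, 0 and 4 were higher and 7, 2 and 0 lower in the double mutants against gld2.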

How the data were processed

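Whole-worm RNA was sequenced in 15 libraries, 3 per genotype. Per the labels' protocols, ribosomal RNA was depleted with a kit for human, mouse and rat and libraries were strand-specific. The deposited raw table holds counts per gene made by the authors. The submitters' processing notes name STAR 2.5.2b, DESeq2 1.18.1, FastQC, featureCounts and Subread 1.4.6-p4 with the build WBcel235, but not their roles. The authors also deposited a signal per gene, the count divided by 1 size factor per library, for 29462 genes, used here only as a check.

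The tests used edgeR 4.0.16 under R 4.3.3 (filterByExpr, TMM factors, glmQLFit with robust = TRUE over all 15 libraries with 10 residual degrees of freedom, glmQLFTest in either direction, Benjamini-Hochberg adjustment over 16888 genes). The script was tested on simulated data. SE is the absolute log2 fold change over the square root of F. CPM used TMM-scaled totals, and deviations used log2 CPM with a prior count of 2. Muscle and neuron scaling sets the library factors from those marker genes. Symbols, exon lengths, positions and overlaps came from the WBcel235 annotation, which matched 46484 identifiers. The listed symbols let-7, bus-8, col-1 and col-6 matched none.

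The members, gene lists and comparisons were chosen with earlier results of these data known. Named members were, per main comparison, the 8 higher and 8 lower called ones that changed most, given a mean from 1 CPM up and no overlap between groups. To these came the 12 highest in mean CPM, the 8 with the largest dispersion and a list of well-studied col genes. A member named by change that averaged under 1 CPM in 1 group met the mean of 1 CPM through the other group. Others named, such as col-95, col-160 and low members, and the genes named from other lists, were chosen after their values were seen. Correlations over all tested genes between same-numbered replicates of different genotypes ran from -0.097 to 0.092 (30 pairs). Those between replicates of other numbers ran from -0.118 to 0.0958 (60 pairs). The numbers were therefore not used to pair libraries in the main test, and shared culture or handling was not tested. Alternatives were size factors of DESeq2's type (RLE), muscle and neuron scaling, no filter, DESeq2 1.42.0, a replicate block, only the 6 libraries compared, leaving out single libraries or those over 4% ribosomal RNA. Leaving out 4 libraries after a break in the header numbers was added after seeing the data. No protein or promoter sequences were used here.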

Additional observations from a re-analysis of the deposited data

How the results depend on the processing

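Counts of col genes called are given as value under the alternative, with the main count in brackets. Muscle and neuron scaling moved the median of all genes from 0.00, 0.00 and 0.02 to -0.43, -0.49 and -0.37 in the gld2-ccf1, the gld2-ccr4 and the gld2-parn1 libraries against gld2. With it the members called lower were 26 (10), 21 (6) and 6 (1) in those comparisons, 32 (15), 22 (4) and 16 (1) in the same double mutants against wt, and 5 (3) in gld2-ccr4 against gld2-parn1. Summed family levels were 11192 CPM in gld2-ccr4, 10452 in gld2 and 14250 in wt. Its reversals were col-101 (-0.37) and col-122 (-0.45) in gld2-ccf1 against gld2, and col-8 (-0.40), col-178 (-0.38) and col-101 (-0.40) in gld2-ccr4 against gld2, where main values were between 0.02 and 0.12 and not called. This scaling centres the libraries on the marker genes, so other genes move down where the markers rise. Under the main scaling the muscle markers had medians of 0.64, 0.56 and 0.46 in the 3 double mutants against gld2. The neuron markers had medians of 0.18, 0.34 and 0.37. Why the markers differed was not tested.

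In gld2-parn1 against gld2, members called higher were 33 (20) with DESeq2, and 8 without the libraries over 4% ribosomal RNA and 8 without those after the break in header numbers. Members called lower (1) were 4 with DESeq2, 2 with no filter, 2 with the replicate block, 4 with only the 6 libraries, 2 without the libraries over 4% ribosomal RNA and 0 without those after the break. In gld2-parn1 against wt the lower count (1) was 2 with DESeq2, with the replicate block and without the libraries over 4% ribosomal RNA. In gld2-ccr4 against gld2-parn1 it (3) was 5 with DESeq2, 6 with only the 6 libraries and 1 without those after the break. Higher members in gld2 against wt were 10 (17) with only the 6 libraries. Without the libraries after the break, which leaves 1 gld2-ccf1 library assumed to vary like the others, the counts were 6 (10) lower in gld2-ccf1 against gld2, 16 (25) higher in gld2-ccf1 against wt, 10 (18) lower against gld2-ccr4 and 9 (20) lower against gld2-parn1. The median SD of log2 CPM at 5 CPM or more was 0.133 in gld2-ccr4 and 0.0865 in gld2, against 0.345 and 0.331 over all tested members. The replicate block moved no other count over all tested members by over 1.5 times. In the abundant class it gave 5 (8) lower in gld2-ccf1 against wt, and 1 (0) lower in gld2-ccr4 and gld2-parn1 against gld2 and in gld2-parn1 against wt.

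On leaving out single libraries, higher and lower counts ran from 13 to 18 and 15 to 24 in gld2 against wt, from 18 to 25 and 8 to 11 with gld2-ccf1, 24 to 37 and 4 to 8 with gld2-ccr4, and 6 to 28 and 0 to 3 in gld2-parn1 against gld2. Against wt they ran from 20 to 27 and 9 to 17, 23 to 29 and 2 to 6, and 20 to 26 and 0 to 2. Between double mutants they ran from 2 to 5 and 13 to 21 (gld2-ccf1 against gld2-ccr4), 10 to 12 and 16 to 23 (gld2-ccf1 against gld2-parn1), and 6 to 10 and 1 to 6 (gld2-ccr4 against gld2-parn1). Of the named called members, 17 of 24, 14 of 22, 16 of 30 and 2 of 20 kept their call in every setting in the 4 main comparisons. The 36 members with under 50 counts in all did not pass the filter and were not tested.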
